A study of Mus musculus with 18 samples.

Results

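Among 42403 regions bound by GATA6 while mouse embryonic stem (ES) cells turn towards primitive endoderm (PrE), 2001 were bound early and lastingly by GATA6, were also bound by SOX17, and never carried a pluripotency transcription factor (PTF) peak. They are called GATA6-SOX17 regions here. They made up 4.72% of all regions and 16.9% of the 11875 Early regions. The values that chose them were the authors' k-means class of GATA6 signal over time (Early&Constant, shortened to Early) and the presence or absence of SOX17, OCT4, SOX2 and ESRRB peaks, so binding by these factors and the width of the regions are descriptions and were not tested. The classes rest on clustering and on peak calls at a q-value cut-off, and since the table holds no q-values, regions just inside and just outside it are not shown.

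The series holds 18 MNase-seq libraries of KH2 ES cells of C57BL/6 x 129/Sv background, which carry a GATA6 cassette that doxycycline (Dox, 1 µg/mL) switches on and which grow on inactivated embryonic fibroblasts. With 3 replicates each, the 6 groups are untreated cells, labelled d0, and cells kept in Dox for 8, 16, 24, 48 or 96 h. All groups carry the transgene, so none represents cells without it, and the labels name no clone or culture for a replicate. MNase values were not analysed here, no library entered a test, and the table gives no depth for the libraries behind the region classes. Other classes of the same table served as comparison. GATA6-only regions (2278) were Early without SOX17 and without PTF, ectopic PTF regions (3725) were Early with SOX17 and with PTF gained only after Dox, and Late SOX17 regions (6144) were bound late by GATA6, carried SOX17 and lacked PTF.

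GATA6 is a zinc finger protein that binds GATA sequences and can engage them in compact chromatin, and it drives the PrE programme. SOX17 belongs to the SOX family, whose HMG box binds the minor groove and bends DNA, and it is itself a product of that programme. OCT4 (encoded by Pou5f1), SOX2 and ESRRB hold ES cells in the pluripotent state, and OCT4 with SOX2 reads a composite motif.

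The regions are best introduced by their sequence. Base positions refer to GRCm38 (mm10) and the plus strand is printed 5′ to 3′, with every match to the GATA6 matrix (13 bases) or the SOX17 matrix (9 bases) in capitals. The first 5 stretches are those with the highest summed score of a GATA6 and a SOX17 motif separated by at most 10 bp within 100 bp of the summit, the base with the most GATA6 signal. They lie at chr9:7747746-7747789 between genes, 3969 bp from the start of Gm10709, at chr2:80441089-80441134 in an intron of Frzb, at chr2:152671887-152671931 in an intron of H13, at chr13:28843228-28843271 in an intron of 2610307P16Rik, and at chr1:162221028-162221069 in an exon of the noncoding Dnm3os.
Gm10709: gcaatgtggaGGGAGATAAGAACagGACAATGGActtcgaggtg
Frzb: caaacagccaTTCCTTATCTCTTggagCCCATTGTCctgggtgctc
H13: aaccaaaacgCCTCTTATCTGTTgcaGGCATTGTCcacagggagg
2610307P16Rik: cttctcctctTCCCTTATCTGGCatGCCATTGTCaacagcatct
Dnm3os: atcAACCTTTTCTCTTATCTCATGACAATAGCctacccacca

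In the Gm10709, Frzb, H13 and 2610307P16Rik stretches the motifs lay on opposite strands with 2, 4, 3 and 2 bp between them. In the Dnm3os stretch they adjoined, and a second, overlapping GATA6 match of score 6.84 lengthens the run of capitals. The summed log-odds scores ran from 25.44 to 27.00. All but the H13 region, which was accessible and in the active enhancer state, were closed before Dox.

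The next stretches show members beside PrE genes. Sox17, the gene of the factor itself, had a member at chr1:4496237-4497180 whose summit lay 156 bp from a transcript start in the annotated UTR, and the stretch printed is chr1:4496993-4497022. Lamb1 encodes the laminin beta 1 chain of the basement membrane, and the window at chr12:31261951-31262151 is centred on a summit 3183 bp from its start. Lrp2 encodes the endocytic receptor megalin, and the window at chr2:69537466-69537666 is centred in one of its coding exons. Nid1 encodes the basement membrane linker nidogen 1, and the window at chr13:13541027-13541227 lies between genes, 32415 bp from its start.
Sox17: gactCTAAGATAACAGAGACAATAGTacca
Lamb1: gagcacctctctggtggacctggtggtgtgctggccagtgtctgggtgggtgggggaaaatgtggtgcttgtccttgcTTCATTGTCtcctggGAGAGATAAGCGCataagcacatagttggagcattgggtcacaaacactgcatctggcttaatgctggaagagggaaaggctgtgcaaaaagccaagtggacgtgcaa
Lrp2: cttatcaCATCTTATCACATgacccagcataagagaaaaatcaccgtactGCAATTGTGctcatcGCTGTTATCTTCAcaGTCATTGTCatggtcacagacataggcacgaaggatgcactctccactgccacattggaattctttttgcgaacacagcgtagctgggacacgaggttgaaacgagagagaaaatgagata
Nid1: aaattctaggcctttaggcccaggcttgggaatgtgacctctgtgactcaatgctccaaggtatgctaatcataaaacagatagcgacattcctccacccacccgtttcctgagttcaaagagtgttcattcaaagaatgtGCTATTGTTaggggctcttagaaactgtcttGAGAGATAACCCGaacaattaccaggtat

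At Sox17 the GATA6 motif (score 11.11) and the SOX17 motif (10.50) were contiguous and lay 90 and 101 bp from the summit. At Lamb1 a GATA6 motif of score 12.31 sat on the summit with a SOX17 motif of 12.32 centred 18 bp away from it. The Lrp2 window held 2 motifs of each kind, with best scores of 10.96 for GATA6 and 12.23 for SOX17. The Nid1 window, of which 98.0% is repeat-masked, held weaker matches, of 8.83 and 8.19, which lay 78 and 45 bp from the summit. The highest SOX17 score of any member, 12.83, belonged to the sequence CCCATTGTC, which 23 members reached, and the highest GATA6 score, 15.21, to GGGAGATAAGAAA in an intron 44 bp from the start of Ephb3, a receptor of ephrin signalling.

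Motifs were counted in windows of 201 bp centred on the summit, so that wide and narrow regions were searched over the same length. At GATA6-SOX17 summits 89.4% of windows held a GATA6 motif (1789 of 2001, 95% Wilson interval 88.0 to 90.7) and 49.8% a SOX17 motif (997, 47.6 to 52.0). In windows 3 kb from the same summits the shares were 33.4% and 29.4% (n = 3790), and over the summit windows of all 42403 regions they were 77.1% and 43.1%. The regions were thus rich in both motifs relative to their surroundings, while 50.2% of them had no SOX17 motif within 100 bp of the summit. Intervals here and below cover counting error between regions only, and regions of a locus are not independent.

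**Figure D1:**
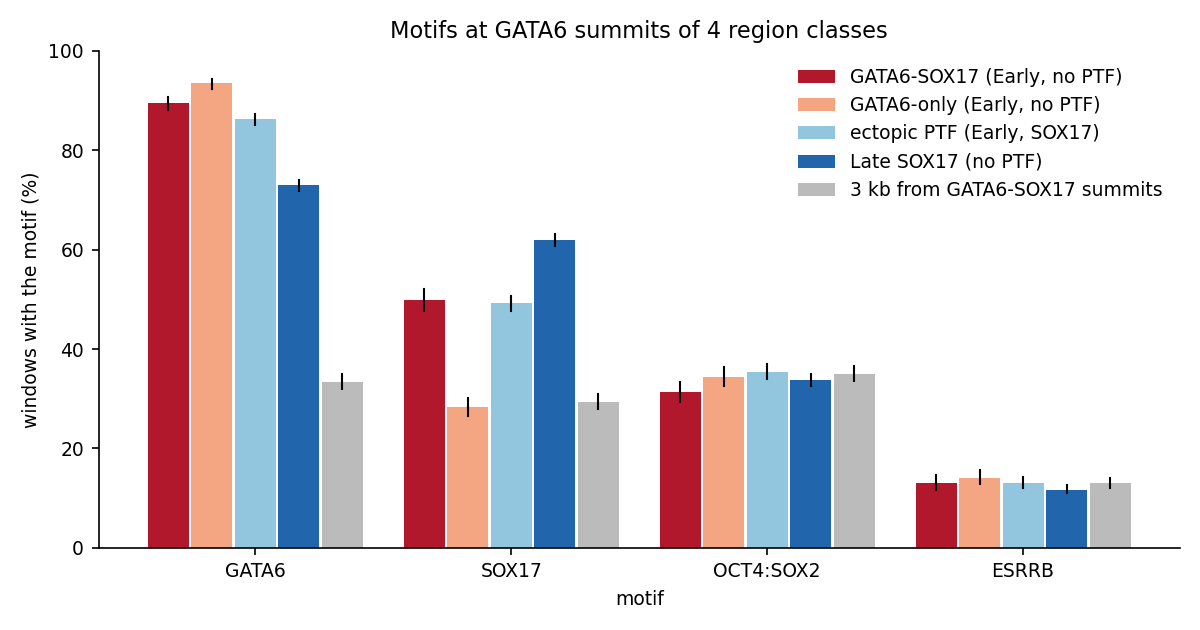
Share of 201 bp windows (%, y axis from 0) holding each of 4 motifs (x axis) at the summits of 4 region classes and 3 kb from GATA6-SOX17 summits, with 95% Wilson intervals as lines. SOX17 motifs reach 49.8% at GATA6-SOX17 summits and 28.3% at GATA6-only summits, beside 29.4% 3 kb away, while OCT4:SOX2 and ESRRB motifs stay near the level 3 kb away.

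The SOX17 motif separated the regions most clearly from GATA6-only regions, the Early class that differs in SOX17 peaks alone. There 28.3% of windows held it (26.5 to 30.2), beside 28.7% in windows 3 kb away. The log2 odds ratio was 1.33 (95% interval 1.15 to 1.52, two-sided Fisher's exact test, adjusted p = 2.12e-46), with the same direction on 20 of 20 chromosomes. The alternatives tried gave values from 0.88 to 1.53. The matches were also stronger, with a mean best score of 9.67 (SD 1.64, n = 997) against 9.26 (SD 1.58, n = 644), a difference of 0.41 (0.17 to 0.65, linear model with errors clustered by chromosome, adjusted p = 4.12e-03).

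The number of SOX17 motifs in the window varied together with SOX17 occupancy. Of the 4279 Early regions without PTF, 46.8% were GATA6-SOX17 regions. This share was 38.1% of 2638 regions without a SOX17 motif, 59.3% of 1264 with 1, 64.6% of 316 with 2 and 70.5% of 61 with 3 or more. Among regions with a motif, cut into 4 groups by best score, it was 53.3% in the lowest group and 68.0% in the highest.

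The GATA6 motif went the other way in the same comparison. It was present at 93.4% of GATA6-only summits (92.3 to 94.4), a log2 odds ratio of -0.75 (-1.06 to -0.43, Fisher's exact test, adjusted p = 8.46e-06, 19 of 20 chromosomes). The mean best score was 10.90 (SD 2.37, n = 1789) in GATA6-SOX17 regions and 11.25 (SD 2.32, n = 2128) in GATA6-only regions, a difference of -0.35 (-0.55 to -0.15, adjusted p = 3.57e-03 in the clustered linear model). In GATA6-SOX17 windows 36.0% held 1 GATA6 motif, 34.1% held 2 and 19.3% held 3 or more, and 28.1% of GATA6-only windows held 3 or more.

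Late SOX17 regions, which share SOX17 and the lack of PTF but gain GATA6 late, showed the reverse balance. A GATA6 motif was found in 72.9% of their windows (71.8 to 74.0), so that GATA6-SOX17 regions had a log2 odds ratio of 1.65 (1.43 to 1.87, Fisher's exact test, adjusted p = 6.09e-57, 20 of 20 chromosomes). Their best GATA6 score was lower by 1.37 (1.17 to 1.57, adjusted p = 6.89e-11 in the clustered linear model). A SOX17 motif was found in 62.0% of Late SOX17 windows (60.8 to 63.2), a log2 odds ratio of -0.72 for GATA6-SOX17 regions (-0.86 to -0.57, adjusted p = 1.15e-20, 19 of 20 chromosomes). The difference in best SOX17 score was -0.22 (-0.40 to -0.05, adjusted p = 0.0275 in the clustered model), and it missed the threshold among regions closed before Dox, where it was -0.19.

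Against ectopic PTF regions, the Early SOX17 regions that gain PTF, no difference in SOX17 motifs was detected at the summit. The shares were 49.8% and 49.2% (log2 odds ratio 0.04, -0.12 to 0.20, Fisher's exact test, adjusted p = 0.710), and the best scores differed by -0.07 (-0.26 to 0.13). The GATA6 motif was more frequent at GATA6-SOX17 summits, with 89.4% against 86.2% (0.43, 0.19 to 0.68, adjusted p = 1.11e-03, 16 of 20 chromosomes), and its best score was higher by 0.44 (0.31 to 0.57, adjusted p = 3.77e-06). Over whole regions, which had a median width of 602 bp here and 834 bp in ectopic PTF regions, the log2 odds ratio of the GATA6 motif was -0.31 instead and did not pass, while that of the SOX17 motif was -0.72 and passed (adjusted p = 1.90e-12). With 200 bp to each side of the summit the GATA6 value was 0.31 and missed the threshold.

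Motifs of the pluripotency factors were no more frequent than nearby. The composite OCT4:SOX2 motif was present in 31.3% of GATA6-SOX17 windows (627, 29.3 to 33.4) and 35.0% of windows 3 kb away (33.5 to 36.5), against 41.8% over all summit windows. It was rarer than in ectopic PTF regions, where 35.4% of windows held it (log2 odds ratio -0.27, -0.43 to -0.10, Fisher's exact test, adjusted p = 3.66e-03, 13 of 20 chromosomes). This value was -0.21 and missed the threshold among regions closed before Dox. GATA6-SOX17 and ectopic PTF regions differ by rule in peaks of OCT4, SOX2 or ESRRB. Differences between them in motifs of these factors are therefore not independent of the selection. The differences from GATA6-only regions (34.5%, log2 odds ratio -0.20, -0.39 to -0.02) and from Late SOX17 regions (33.7%, -0.16, -0.31 to 0.00) missed the threshold, with adjusted p-values of 0.0544 and 0.0783. Over whole regions both turned direction and passed, at 0.33 (adjusted p = 7.14e-04) and 0.40 (adjusted p = 1.09e-06). An ESRRB motif was present in 13.1% of windows (262), against 13.0% of windows 3 kb away and 14.1%, 13.1% and 11.7% in the comparison classes, and none of these differences passed the test (adjusted p-values from 0.146 to 1). Over whole regions all 3 passed, at 0.20 against GATA6-only, -0.64 against ectopic PTF and 0.52 against Late SOX17 regions (adjusted p = 0.0331, 1.90e-14 and 1.08e-10). Against Late SOX17 regions the ESRRB motif also passed with 200 bp to each side (0.20) and with motifs above the median score (0.44).

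**Figure D2:**
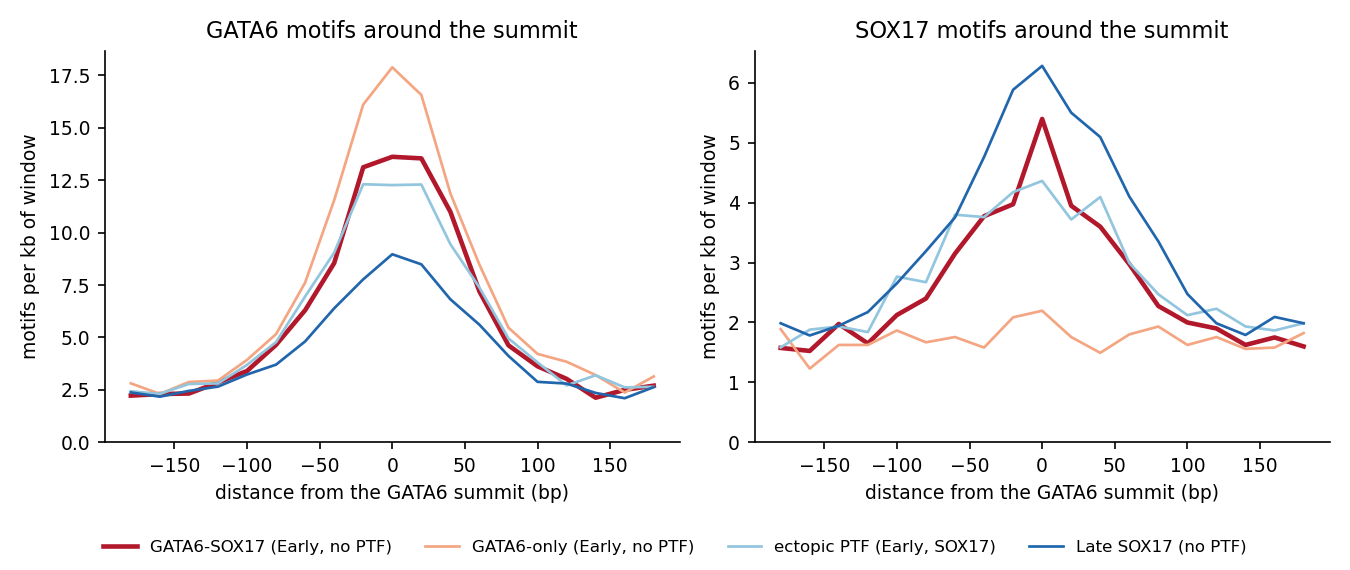
Number of GATA6 motifs (left) and SOX17 motifs (right) per kb of window (y axes from 0) in bins of 20 bp by distance from the GATA6 summit (x axis, bp) in 4 region classes. GATA6-SOX17 regions peak at the summit at 13.6 GATA6 and 5.40 SOX17 motifs per kb, whereas SOX17 motifs of GATA6-only regions stay between 1.23 and 2.19 per kb. SOX17 motifs of ectopic PTF and Late SOX17 regions peak there too, at 4.36 and 6.28 per kb.

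The motifs were centred on the summit. In the 20 bp around it, GATA6-SOX17 regions had 13.6 GATA6 motifs per kb, and 180 bp away they had 2.22 on the left and 2.70 on the right. SOX17 motifs fell from 5.40 per kb at the summit to 1.57 and 1.60 per kb at the same distances. In GATA6-only regions the GATA6 peak was taller, at 17.9 per kb, and SOX17 motifs reached 2.19 per kb at the summit. The SOX17 peak was shared by the other SOX17-bound classes, at 4.36 per kb in ectopic PTF and 6.28 per kb in Late SOX17 regions. Over whole regions, the best GATA6 motif of the 1919 GATA6-SOX17 regions with one lay a median of 39 bp from the summit (quartiles 17 and 90 bp) and the best SOX17 motif of 1524 regions lay 97 bp from it (36 and 215 bp).

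GATA6 and SOX17 motifs shared a window in 44.0% of GATA6-SOX17 regions (880, 41.8 to 46.2), against 9.89% of windows 3 kb away. GATA6-only regions reached 25.9%, a log2 odds ratio of 1.17 (0.98 to 1.36, Fisher's exact test, adjusted p = 1.24e-34, 20 of 20 chromosomes). A pair with at most 10 bp between the motifs was present in 12.3% (247, 11.0 to 13.9), against 1.61% of windows 3 kb away and 6.37% of GATA6-only regions (1.05, 0.74 to 1.36, adjusted p = 8.21e-11, 18 of 20 chromosomes). Ectopic PTF regions (11.6%) and Late SOX17 regions (11.5%) did not differ detectably from GATA6-SOX17 regions in such pairs, with log2 odds ratios of 0.10 (-0.14 to 0.34) and 0.11 (-0.11 to 0.33). Shared windows and pairs depend on the shares of the single motifs given above, so they are no separate evidence. Whether the motifs lay together more often than those shares give was not tested.

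No single layout dominated among the pairs, and layout was not tested. The GATA6 motif was read 5′ to 3′. The SOX17 motif lay on its 3′ side on the opposite strand in 75 regions and on the same strand in 61. On its 5′ side these numbers were 76 and 68, so that all 4 orientations occurred. A region with pairs of more than 1 orientation is counted under each. Of the 84 combinations of side, strand and gap from 0 to 20 bp, the most frequent were present in 13 windows (0.65%), and the median combination in 0.30%. The best SOX17 matches were also varied, with 177 distinct sequences over 997 windows. The most used were GCTATTGTT (28 windows), CCCATTGTT and TCCATTGTT (27 each), and these were each under 3% of the windows with a motif.

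Before Dox, most GATA6-SOX17 regions lay in closed chromatin. The authors' ATAC-seq class was closed in 1441 (72.0%, 70.0 to 73.9), moderate in 504 and accessible in 56 (2.80%, 2.16 to 3.62). The closed share was lower than in each comparison class, with 77.7% of GATA6-only, 77.8% of ectopic PTF and 83.6% of Late SOX17 regions. The log2 odds ratios were -0.44 (-0.64 to -0.24), -0.45 (-0.63 to -0.27) and -0.99 (-1.16 to -0.82), and Fisher's exact test gave adjusted p-values of 5.65e-05, 3.93e-06 and 1.60e-27, with the direction on 16, 18 and 20 of 20 chromosomes. Within bins of region width the difference from GATA6-only regions was -0.23 and no longer passed (adjusted p = 0.0503). The accessible share passed the test against ectopic PTF regions alone (1.80%, log2 odds ratio 0.65, 0.13 to 1.17, adjusted p = 0.0292), and not with 1 region per 100 kb (0.50).

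Accessible and closed members differed in sequence and position. Among the 56 accessible regions 66.1% had a GATA6 motif in the window and 30.4% a SOX17 motif, 76.8% lay within 1 kb of a transcript start, and the mean GC content was 55.9%. Among the 1441 closed regions 92.6% had a GATA6 motif and 51.8% a SOX17 motif, 7.43% lay within 1 kb of a start, and the GC content was 44.7%. Moderate regions lay between these values on each measure, with 82.7%, 46.2%, 22.8% and 49.5%. The 95 members with neither motif were the least closed (42.1%), and the 880 with both were the most closed (77.4%).

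**Figure D3:**
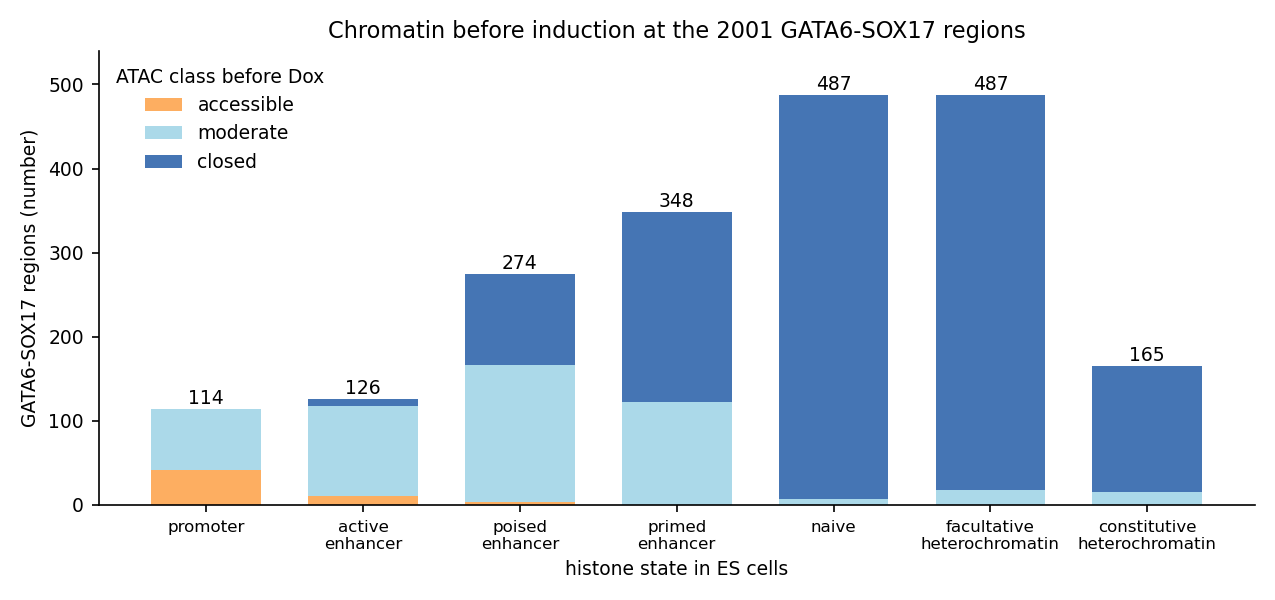
Number of GATA6-SOX17 regions (y axis from 0) in each of 7 histone states of ES cells (x axis), divided by ATAC-seq class before Dox. The naive and facultative heterochromatin states hold 487 regions each and are almost wholly closed, while the 114 regions in the promoter state hold 41 of the 56 accessible ones.

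The histone states, which the authors derived from public ES cell data, spread over marked and unmarked chromatin. The naive state, without strong marks, and the facultative heterochromatin state held 487 members each (24.3%). Primed enhancers held 348 (17.4%), poised enhancers 274 (13.7%), constitutive heterochromatin 165 (8.25%), active enhancers 126 (6.30%) and promoters 114 (5.70%). Constitutive heterochromatin had the highest share of windows with a SOX17 motif, 61.2%, and the promoter state the lowest, 28.9%. The GATA6 motif was most frequent in facultative heterochromatin (95.3%) and least frequent in the promoter state (76.3%).

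Compared with GATA6-only regions, active enhancers were more frequent (6.30% against 4.26%, log2 odds ratio 0.60, 0.20 to 0.99, Fisher's exact test, adjusted p = 5.90e-03), as were primed enhancers (17.4% against 13.5%, 0.43, 0.19 to 0.68, adjusted p = 1.01e-03). Facultative heterochromatin was less frequent (24.3% against 27.8%, -0.26, -0.46 to -0.06, adjusted p = 0.0185). None of these 3 calls held within bins of region width, where the values were 0.38, 0.18 and -0.061. Among regions closed before Dox the active enhancer value was -0.025 and the facultative value -0.16, and neither passed. Compared with ectopic PTF regions, poised enhancers were more frequent (13.7% against 9.69%, 0.56, 0.32 to 0.81, adjusted p = 1.93e-05) and the naive state less frequent (24.3% against 32.9%, -0.61, -0.78 to -0.43, adjusted p = 7.89e-11), each with that direction on 20 of 20 chromosomes.

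Against Late SOX17 regions, 5 of the 7 states passed the test. Active enhancers (2.91% there, log2 odds ratio 1.16, 0.83 to 1.50), primed enhancers (12.2%, 0.60, 0.40 to 0.80) and promoters (3.43%, 0.76, 0.43 to 1.10) were more frequent in GATA6-SOX17 regions, with adjusted p-values in Fisher's exact test of 3.17e-10, 2.84e-08 and 4.94e-05. Facultative heterochromatin (33.3%, -0.63, -0.80 to -0.47, adjusted p = 2.20e-13) and constitutive heterochromatin (11.2%, -0.50, -0.75 to -0.24, adjusted p = 2.84e-04) were less frequent. Within bins of region width the constitutive value was 0.092, of opposite sign. Among closed regions the active enhancer value of 0.93 and the constitutive value of -0.30 missed the threshold.

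The authors also knocked down Oct4 during induction and classed the change in GATA6 binding at 48 h, a contrast made in libraries that did not choose the regions. GATA6 binding increased at 308 GATA6-SOX17 regions (15.4%, 13.9 to 17.0) and decreased at 43 (2.15%, 1.60 to 2.88), beside 8.57% increased and 6.25% decreased over all regions. The remaining 1650 were classed unchanged. The share with increased binding lay above that of the whole table and the share with decreased binding below it.

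GATA6-only regions differed from them in both directions. Binding increased at 1.45% of those (1.03 to 2.03), a log2 odds ratio of 3.63 for GATA6-SOX17 regions (3.10 to 4.16, Fisher's exact test, adjusted p = 1.96e-68, 20 of 20 chromosomes), and decreased at 4.52% (-1.11, -1.63 to -0.59, adjusted p = 5.65e-05, 15 of 20). Ectopic PTF regions had increased binding at 9.53% (0.79, 0.55 to 1.02, adjusted p = 4.16e-10) and decreased binding at 10.8% (-2.46, -2.92 to -2.00, adjusted p = 7.10e-36). Late SOX17 regions had increased binding at 33.3% (-1.46, -1.65 to -1.27, adjusted p = 1.49e-56) and decreased binding at 0.488% (2.16, 1.49 to 2.84, adjusted p = 1.62e-09). In the value for increased binding, GATA6-SOX17 regions thus stood above GATA6-only and ectopic PTF regions and below Late SOX17 regions. The remaining Early regions were not compared. Within bins of region width the values for increased binding were 3.46, 1.31 and -2.05 in the same order.

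**Figure D4:**
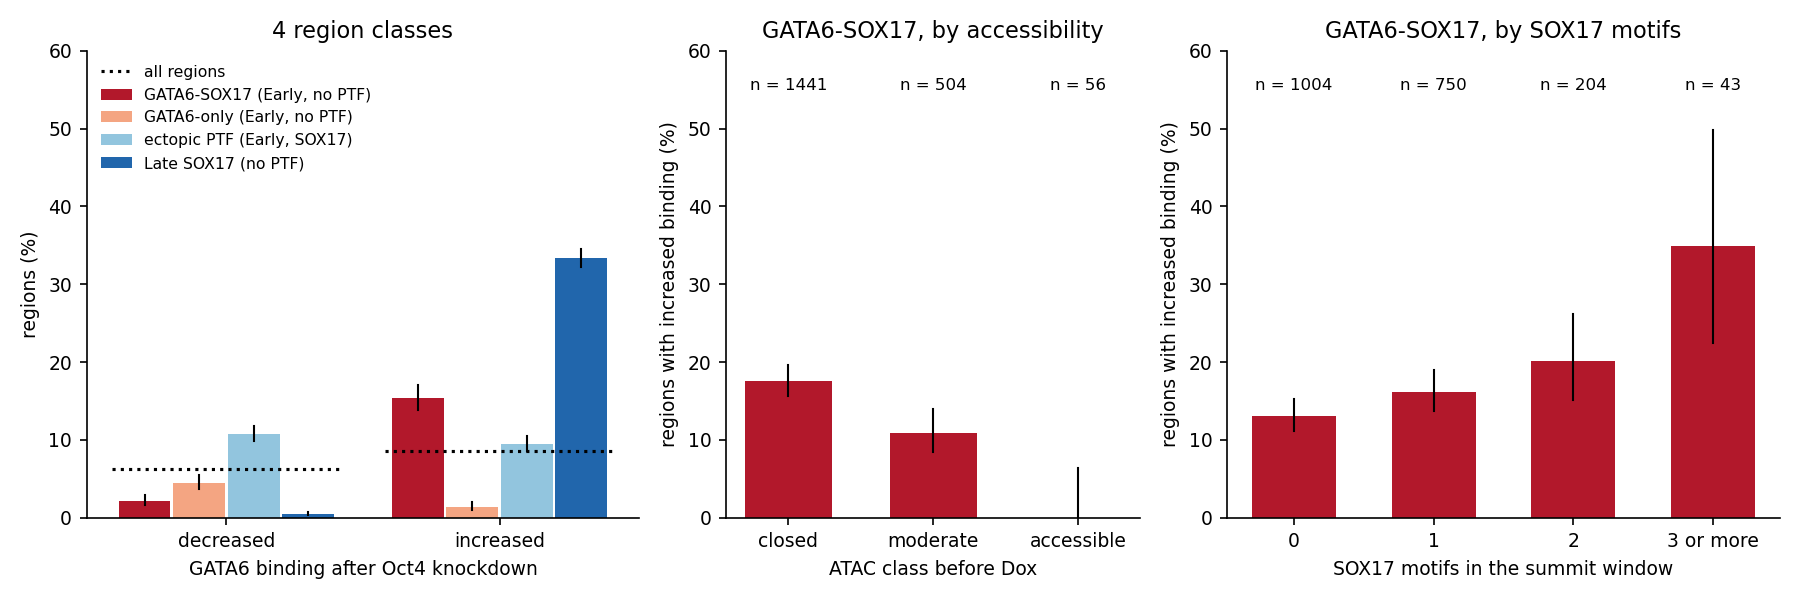
Share of regions (%, y axes from 0) with decreased or increased GATA6 binding after Oct4 knockdown in 4 region classes (left, the dotted lines give all regions), and share with increased binding among GATA6-SOX17 regions by ATAC-seq class (middle) and by number of SOX17 motifs in the summit window (right), with 95% Wilson intervals. Increased binding is recorded at 15.4% of GATA6-SOX17 regions, at 0 of 56 accessible ones and at 34.9% of the 43 with 3 or more SOX17 motifs.

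Within the GATA6-SOX17 regions the increase went with chromatin class and with SOX17 motifs, given here as description. It was recorded at 17.6% of closed (15.7 to 19.6), 10.9% of moderate (8.48 to 13.9) and 0 of 56 accessible regions, a count whose Wilson interval reaches 6.42%. It was recorded at 13.0% of 1004 regions without a SOX17 motif in the window, 16.1% of 750 with 1, 20.1% of 204 with 2 and 34.9% of 43 with 3 or more (22.4 to 49.8). By histone state it ranged from 3.51% in promoters to 19.3% in primed enhancers. Among regions with a SOX17 motif in the window, the mean best SOX17 score was 9.99 (SD 1.60, n = 177) with increased binding. It was 9.61 (SD 1.64, n = 800) in unchanged regions and 9.33 (SD 1.50, n = 20) in those with decreased binding.

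Region width moved with the same class. The median width was 697 bp in regions with increased binding and 583 bp in those with decreased or unchanged binding. In 4 groups of members from narrowest to widest, increased binding was recorded at 6.39%, 14.2%, 17.6% and 23.4%, while the share with a SOX17 motif in the summit window fell from 59.5% to 39.4%. The part of width in the knockdown class within the GATA6-SOX17 regions was not tested. The 43 regions with decreased binding were closed in 88.4% (75.5 to 94.9). An OCT4:SOX2 motif was in the window of 25.6% of them (11, 14.9 to 40.2), an interval that holds the 31.3% of all members.

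The regions were spread along genes much like the other classes. Summits lay in introns in 54.9%, between genes in 39.8%, and within 1 kb of a transcript start in 13.2% (265, 11.8 to 14.8). The promoter share was higher than in ectopic PTF regions (10.9%, log2 odds ratio 0.32, 0.08 to 0.56, Fisher's exact test, adjusted p = 0.0185) and in Late SOX17 regions (10.4%, 0.39, 0.17 to 0.61, adjusted p = 1.49e-03), and it did not differ detectably from GATA6-only regions (12.8%, 0.05, -0.20 to 0.31). Among closed regions both of these calls were lost, with values of 0.21 and 0.16. The median distance to the nearest start was 7969 bp.

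The GC content of the window was 46.2% (SD 5.95), higher than in the other classes by 0.66 (0.32 to 1.01), 1.36 (1.09 to 1.62) and 2.08 percentage points (1.80 to 2.36) for GATA6-only, ectopic PTF and Late SOX17 regions. The clustered linear model gave adjusted p-values of 1.49e-03, 6.84e-09 and 1.64e-11. Within bins of region width the difference from GATA6-only regions was 0.18 points and did not pass. Repeat-masked bases made up 16.8% of the windows on average.

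Another GATA6 region had its summit within 10 kb of 58.6% of GATA6-SOX17 summits (1173, 56.4 to 60.8), against 50.4% of GATA6-only summits (log2 odds ratio 0.48, 0.30 to 0.65, Fisher's exact test, adjusted p = 3.15e-07, 16 of 20 chromosomes). The share was 61.4% at ectopic PTF and 56.1% at Late SOX17 summits, and neither difference passed the test. The nearest such neighbour was itself bound by SOX17 in 54.0% for GATA6-SOX17 and 45.2% for GATA6-only regions. It was so in 60.7% for ectopic PTF and 60.3% for Late SOX17 regions, and these values were not tested. Another member lay within 10 kb of 161 regions (8.05%). Chromosome X held 92 of its 1238 regions in the class (7.43%), the highest share, and chromosome 14 held 3.75%, the lowest of the chromosomes with more than 1 region.

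Members were mostly scattered singly over genes. As the gene with the nearest start, 1724 genes had 1 member, 123 had 2, 9 had 3 and Tanc1, which encodes a scaffold protein, had 4. Of those 4 regions, 1 gained GATA6 binding after Oct4 knockdown and 3 were unchanged, and 3 were moderate and 1 closed before Dox. The genes with 3 members were B4galt1, Cdyl, Frmd4b, Gm14809, Gm17034, Gm29099, Gm36033, Jade1 and Soat1. The 3 members beside Jade1, a subunit of histone acetylase complexes, lay within 5153 bp of a start and were all moderate, as were those near Gm17034, in introns of the hexokinase gene Hk2.

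Genes of the PrE and pluripotency programmes were searched for members within 100 kb of a start. Of 46 listed genes 18 had one, beside 21.9% of 21924 coding genes. GATA6-only regions lay as near to 24.2% of coding genes, ectopic PTF regions to 31.2% and Late SOX17 regions to 45.0%. The coding-gene share is not matched for the number of GATA6 regions of any class near a gene. Among the basement membrane genes that number ran from 6 for Nid1 to 40 for Lamc1. Among PrE transcription factors the genes with a member were Gata4, Sox17, Sox7 and Foxa2, while Gata6 and Hnf4a had none. The Sox17 member was moderate, in the poised enhancer state and unchanged after Oct4 knockdown. The member nearest to Sox7, a SOX17 relative, lay 1176 bp from its start and was likewise moderate, poised and unchanged. Its best SOX17 score was 12.34 over the whole region of 1041 bp and 7.59 in the summit window. The nearer of the 2 Gata4 members lay in an intron 10907 bp from the nearest start. It held 6 GATA6 motifs, the best scoring 14.69, and no SOX17 motif. The Foxa2 member was more distant, at 95102 bp, and closed.

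Basement membrane genes had members at 7 of 9, namely Lama1, Lamb1, Lamc1, Col4a1, Col4a2, Nid1 and Nid2, and not at Sparc or Hspg2. The member nearest to each of these 7 genes was closed before Dox, as were 72.0% of all GATA6-SOX17 regions. Col4a1 and Col4a2, which share a head-to-head promoter, had the same nearest region, at chr8:11257639-11259202 in an intron of Col4a1. The Lamb1 region was 1572 bp wide, lay in facultative heterochromatin, held 7 GATA6 and 6 SOX17 motifs and gained GATA6 binding after Oct4 knockdown. The Lama1, Lamc1, Col4a1, Nid1 and Nid2 regions were in the naive state and unchanged.

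Surface and signalling genes had members at 2 of 7. The Lrp2 region, in a coding exon 28421 bp from the start, was closed, held 5 GATA6 and 3 SOX17 motifs and gained GATA6 binding after the knockdown. Near Cubn, which encodes the cubilin receptor, the closest member was the accessible promoter of the neighbouring Vim, 81910 bp away. It held a SOX17 motif of 12.32, outside the summit window, and no GATA6 motif. Pdgfra, Dab2, Amn, Fgfr2 and Fst had none. Keratins and visceral or parietal endoderm genes had members at 3 of 11, namely Krt19, Ttr and Cited1. The nearer of the 2 Ttr members, in an intron 8070 bp from the start of this transthyretin gene, was moderate. It held 4 SOX17 motifs and gained binding after the knockdown.

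Pluripotency genes had members at 2 of 12. Klf2 had a moderate primed region 41586 bp from its start and Klf5 a closed naive region 52713 bp away, both unchanged after the knockdown. Pou5f1, Sox2, Nanog, Esrrb, Klf4, Tfcp2l1, Prdm14, Tbx3, Zfp42 and Dppa3 had none. Between 5 and 23 GATA6 regions of any class lay within 100 kb of each of them. Members made up 4.72% of all regions, and by rule no region with a PTF peak could be a member. The absence of members at these genes is therefore no finding about them. The lists were drawn up with earlier results known, so these counts describe the loci and test nothing.

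At the extreme of motif number stood a tandem repeat. The region at chr3:145953967-145955039, between genes, 15694 bp from 2410004B18Rik, held 37 SOX17 motifs, 1 GATA6 motif of score 6.55 and none of GATA6 within 100 bp of the summit. It was closed and naive before Dox and gained GATA6 binding after Oct4 knockdown. The 121 bases around its summit, chr3:145954720-145954840, show SOX17 matches in capitals, 6 of them at intervals of 17 bp.
Repeat: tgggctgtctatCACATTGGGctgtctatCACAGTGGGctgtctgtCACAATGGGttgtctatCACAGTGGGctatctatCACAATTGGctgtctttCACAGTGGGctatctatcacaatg

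Of these 6 matches, 3 scored 7.66, near the lowest score counted (7.18), and the best reached 12.06. The next member by SOX17 motifs, at chr2:56277285-56277551, had 10 in a stretch of which 42.3% of the summit window is repeat-masked. Then came 4 regions with 8 motifs each, among them one in an intron of Frmd4b with 7 GATA6 motifs, and one at chr8:53273949-53274841 that had 8 GATA6 motifs and lost GATA6 binding after the knockdown. The widths of all GATA6-SOX17 regions ran from 185 to 2976 bp with a median of 602 bp, compared with 485 bp in GATA6-only, 834 bp in ectopic PTF and 471 bp in Late SOX17 regions.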

How the data were processed

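The series measured MNase-seq in 18 libraries, whose reads the submitters' processing notes tie to bcl2fastq, cutadapt, Bowtie2, SAMtools and mm10 (versions not given in the sources used here). The values used come from the deposited table of GATA6 regions, of which 30 columns were used. A further 59 columns of signal per assay, time point or cell type match no library and were not used. According to the study's methods, the authors called peaks, clustered GATA6 signal, classed ATAC-seq and histone signal, ran DESeq2 on Oct4 knockdown libraries and ran FIMO with JASPAR matrices. The deposited score of the best motif was read as a log-odds score because sums of per-base weights reproduced it. The study states an average depth for its ChIP-seq libraries, and the table gives none per library.

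The 4 scoring matrices were recovered from deposited scores by least squares, and rescanning gave the deposited best score in 100% of regions within 0.001. Windows of 201 bp, windows 3 kb away overlapping no GATA6 region, and GENCODE M21 annotation used the GRCm38 sequence. Motif starts and ends were positions in the file, counted from 1.

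Regions were the units of 69 tests in 3 comparisons: Fisher's exact test (two-sided, log2 odds ratio, 95% Woolf interval) for shares and linear models with errors clustered by chromosome for scores and GC content, adjusted together by the Benjamini-Hochberg procedure. Neighbouring regions are not independent, so p-values are likely too small, and the number of chromosomes with the pooled direction is given. The functions were tested on simulated data. Named regions were the member nearest to each listed gene within 100 kb, those with the highest motif scores, pairs and motif numbers, and genes with most members. The pairs were chosen outside chromosome 18. The members and lists were chosen with earlier results of these data known. Tests used scipy 1.17.1 and statsmodels 0.14.6, tables numpy 2.4.6 with pandas 2.3.3, and plots matplotlib 3.10.9, all under Python 3.11.15.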

Additional observations from a re-analysis of the deposited data

How the results depend on the processing

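No paired analysis was possible because no library entered a test: the units were regions of the authors' table, which carry no replicate number. Each result was recomputed with 1 choice changed at a time, which gave 258 values. Of these, 192 kept their direction and their side of the threshold, 21 newly passed and 15 no longer passed in the same direction, and 30 changed direction. Of those 30, 8 newly passed in the other direction (marked *), 3 no longer passed (marked †) and 19 passed in neither case. The lead over GATA6-only regions in SOX17 motifs and both knockdown differences from each class are among those that kept direction and call under all alternatives run. Counting closed and moderate regions together is the complement of the accessible share and was not run apart. Values are log2 odds ratios unless named as scores or GC content, given for GATA6-SOX17 regions against GATA6-only (G), ectopic PTF (E) or Late SOX17 (L) regions. The cause of a change was not tested, except that subsets hold fewer regions. The table gives no depth per library, so what depth limits could not be judged.

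Within 10 bins of region width, direction changed for the SOX17 motif (E -0.18), both motifs (E -0.0084), accessible regions (G -0.15), primed (E 0.25*), facultative (E -0.083) and constitutive states (G 0.28, E -0.49*, L 0.092†), promoters (G -0.095), introns (G -0.083) and neighbours (E 0.27*, L -0.035). Calls were lost for closed regions (G -0.23), active (G 0.38), primed (G 0.18) and facultative states (G -0.061) and GC content (G 0.18 points). Calls were gained for accessible regions (L 0.61), active (E 0.56), poised (L 0.46), promoter (E 0.66) and naive states (L -0.38) and introns (E 0.27).

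Among closed regions, direction changed for active (G -0.025†, E -0.079), poised (G -0.11) and naive states (G 0.054, L 0.24*) and introns (G -0.056). Calls were lost for the OCT4:SOX2 motif (E -0.21), SOX17 score (L -0.19), active (L 0.93), facultative (G -0.16) and constitutive states (L -0.30) and promoters (E 0.21, L 0.16). Calls were gained for the OCT4:SOX2 motif (G -0.26), facultative (E 0.28) and constitutive states (E 0.51) and neighbours (E -0.25).

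Over whole regions, direction changed for the GATA6 (E -0.31†), SOX17 (E -0.72*), OCT4:SOX2 (G 0.33*, L 0.40*) and ESRRB motifs (G 0.20*), and calls were gained for ESRRB (E -0.64, L 0.52) and the SOX17 score (E -0.18). With 200 bp to each side, the GATA6 call was lost (E 0.31), the SOX17 motif changed direction (E -0.16) and ESRRB gained a call (L 0.20). With motifs above the median score, OCT4:SOX2 (G -0.48) and ESRRB (L 0.44) gained calls and ESRRB changed direction (E 0.22). With at most 5 bp between motifs, pairs changed direction (E -0.11, L -0.024).

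With 1 region per 100 kb, calls were lost for accessible regions (E 0.50) and the facultative state (G -0.19), gained for the poised (L 0.30) and facultative states (E 0.23) and neighbours (L 0.42), and introns changed direction (G -0.026, L 0.017). For neighbours, a limit of 20 kb gave E -0.27, newly passing, and L -0.0049, of opposite sign, and 5 kb gave E -0.21, newly passing.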
